A study of Homo sapiens with 4 samples.

Results

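Transcripts of the intraflagellar transport (IFT) machinery, the BBSome and their motors were measured in 2 endometrial cancer cell lines in which Efp, the ubiquitin ligase encoded by TRIM25, had been silenced. The group was made of 38 listed genes of the IFT-A and IFT-B complexes, the BBSome, kinesin-2 and dynein-2, out of 18417 genes with a probe set naming a single gene. It was picked because IFT46 was over 2-fold higher after siEfp in both lines, and the question was whether the rest of its complex went with it. All 38 genes were measured, 37 by 1 probe set and DYNC2H1 by 2. ERα-positive Ishikawa cells, from a well-differentiated endometrial adenocarcinoma, and ERα-negative HEC-1A cells, from a moderately differentiated one, received either a non-targeting siControl or siEfp, with 1 array for each of these 4 conditions. The Ishikawa arrays were made with siEfp #A and RNA taken 48 h after transfection. Neither the duplex nor the harvest time of the HEC-1A cultures is stated in these sources. All 4 cultures grew in DMEM with fetal bovine serum and were transfected, and each line stands for 1 tumor. In such bulk RNA, fewer cells of a type and less RNA per cell cannot be told apart.

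TRIM25 had log2 signals of 9.42 with siControl and 7.96 with siEfp in Ishikawa cells, and of 9.50 and 7.93 in HEC-1A cells, so that both siEfp arrays had the direction of their labels. The median signals of the arrays lay between 5.63 and 5.69, and arrays of a line correlated at 0.992 and 0.993 over probe sets. ESR1, the gene of ERα, had signals of 6.91 and 6.65 in Ishikawa cells and of 4.45 and 4.77 in HEC-1A cells. Both lines had bright epithelial keratins, with KRT18 between 11.56 and 11.92 on the 4 arrays. CDH1, the E-cadherin gene, was at 10.22 and 9.62 in Ishikawa cells but at 4.07 and 3.74 in HEC-1A cells, below the level of 4.74 under which 95% of 341 olfactory receptor genes lay. These receptors served as a reference for dim signals, since their transcripts belong to the nose. With 1 array per condition no difference between siEfp and siControl has a replicate check, and no p-value is given for it. The list was also picked on that very comparison.

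Primary cilia are antenna-like projections of the plasma membrane that stand on a centriole and gather receptors of Hedgehog and other signals. Their parts are carried along the axoneme by IFT trains: kinesin-2 moves them to the tip with the IFT-B complex, and dynein-2 brings them back with IFT-A. The BBSome is a coat-like cargo adaptor that rides on these trains and takes membrane proteins out of the cilium. In the endometrium, epithelial cells carry primary cilia, and a part of the lining consists of multiciliated cells.

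Many ciliary genes share a promoter element, the X-box, to which RFX transcription factors bind. It is shown here as a sequence feature that played no part in the choice of the list. RefSeq promoters of GRCh38.p14, reaching from 250 bases before to 50 bases after each annotated start, were at hand for 35 of the 38 genes. An X-box was sought on both strands as the half-site GTNNCC followed, after a spacer of 2, 3 or 4 bases, by the half-site GNAAC. It was found in 8 of the 35 genes, or 22.9%, while 6.03% of the 14239 genes on the array with a promoter held it. Counted by promoter, it was in 8 of 41 of the members, or 19.5%, and in 4.28% of all 35116. The following windows of 30 bases run 5′ to 3′ along the gene, with the match in capitals:
IFT70A: gttgccctGTTGCCGTGGTAACcgcacgca
IFT70B: gttgctctGTTGCCATAGTAACcgcaccca
IFT56: caggcgggGTTACCGTGGAGACagaacgtg
IFT74: ccgcccccGTTGCCGGGATACgccgcggcg
IFT57, first match: ggagtctaGTTTCCCTGGTGACggattgtc
IFT57, second match: gtccggtgGTCGCCTGGTAACcggtcgtgg
IFT122: catgtacGTTGCCAGGGGTAACgcaggtag
ARL6: aagctcctGTTGCCAAGGGAACggtgcctg
DYNC2LI1: gatgcccGTCTCCCCACGCAACcgcggccg

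The windows lie at chr2:177618719-177618748 on the minus strand for IFT70A, chr2:177552781-177552810 on the minus strand for IFT70B, chr7:139133756-139133785 on the plus strand for IFT56 and chr9:26956376-26956405 on the plus strand for IFT74. Those of IFT57 are at chr3:108222433-108222462 and chr3:108222406-108222435 on the minus strand. That of IFT122 is at chr3:129440205-129440234, that of ARL6 at chr3:97764726-97764755 and that of DYNC2LI1 at chr2:43773986-43774015, all on the plus strand. In the paralogs IFT70A and IFT70B 12 of the 14 bases of the match were equal, with the substitutions G7A and G9A counted from the first base of the match in IFT70A. The matches of IFT56 and IFT74 and the first of IFT57 read on the strand opposite to the gene. The X-box was not found in the window of IFT46, which says only that these letters are not there.

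IFT46 stood apart from its own complex. IFT46, a subunit of the IFT-B core (probe set 7952069), had log2 signals of 8.26 with siControl and 9.53 with siEfp in Ishikawa cells, and of 8.83 and 9.97 in HEC-1A cells. Both siEfp arrays lay above both siControl arrays. The differences of 1.27 and 1.14, or 2.41-fold and 2.21-fold, are those by which the list was chosen. IFT46 ranked 6th from the top of all genes in Ishikawa cells and 9th in HEC-1A cells. Of all genes, 0.136% were at least 2-fold higher in Ishikawa cells, 0.103% in HEC-1A cells and 0.0109%, or 2 genes, in both. The other of these was SNORA60, a small nucleolar RNA gene. None of the 37 other members reached 2-fold in either direction in either line. Nearest to that threshold were DYNC2LI1 in Ishikawa cells, 1.64-fold higher, and IFT70B in HEC-1A cells, 1.55-fold higher, each in that line alone. Without IFT46, for which the list was picked, 1 of 37 genes was thus at least 1.5-fold higher in each line, not the same gene. Of all genes, 1.49% were so in Ishikawa and 1.34% in HEC-1A cells. None of the 38 was 1.5-fold lower in either line, beside 3.72% and 2.04%. Past 1.5-fold either way were 5.21% of all genes in Ishikawa and 3.37% in HEC-1A cells.

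**Figure D1:**
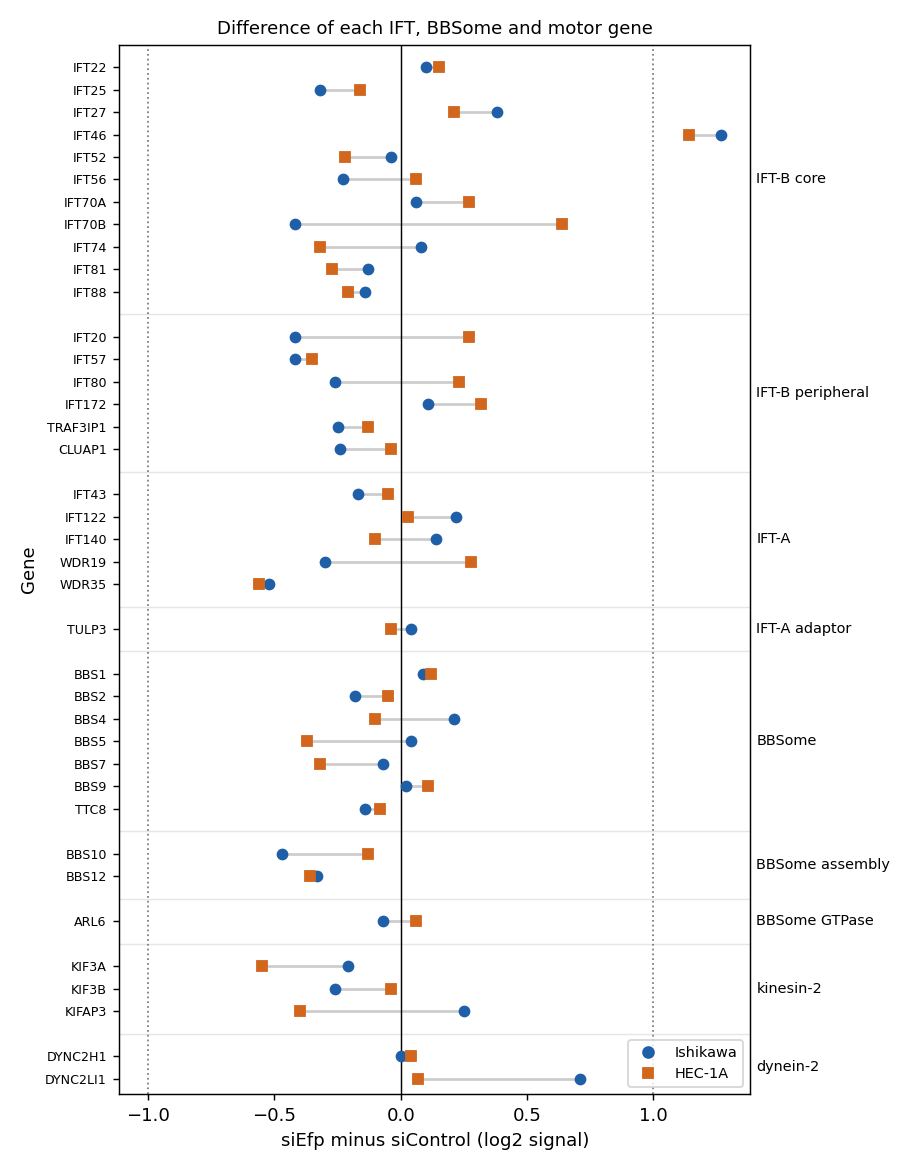
Difference between the siEfp and the siControl array (x axis, log2 signal) for each of the 38 genes (y axis, ordered by complex), with Ishikawa cells as blue circles and HEC-1A cells as orange squares, 1 array per condition. Dotted lines mark a 2-fold difference; IFT46 at 1.27 and 1.14 is the gene that lies beyond it, and the others lie between -0.56 and 0.71.

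More of the other members were slightly lower than slightly higher. Without IFT46, 22 of the 37 genes were lower after siEfp in each line, or 59.5%, while 47.6% of all genes were lower in Ishikawa and 47.7% in HEC-1A cells. The remaining 15 were higher, beside 52.2% and 52.1% of all genes. Their median differences were -0.13 and -0.05, beside 0.01 in both lines over all genes. The same direction in both lines was seen for 25 of the 37, and over all genes in 57.8%. Of these, 16 were lower in both lines, or 43.2%, beside 26.7% of all genes, and 9 were higher in both, beside 31.1%. The siControl and siEfp arrays of each line are its own, but all 4 arrays may have been normalized together. Across the members the differences of the lines correlated at r = 0.47 with IFT46 and at 0.12 without it, and across all genes at 0.33. These are correlations over genes, which are not independent replicates.

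IFT46 sits in the core of IFT-B beside IFT52 and IFT88, and IFT56 docks onto it. None of these 3 genes had a difference of its size. Pairs of signals are given with siControl first and siEfp second, and pairs of differences with Ishikawa first and HEC-1A second unless stated. IFT52 had signals of 8.57 and 8.52 in Ishikawa cells and of 8.73 and 8.51 in HEC-1A cells. IFT88, also called Polaris, was at 6.07 and 5.93 and at 6.07 and 5.86, lower with siEfp in both lines. IFT56, known for the import of motility proteins, was at 6.95 and 6.72 and at 7.12 and 7.18. The tubulin-binding pair IFT74 and IFT81 had, in the order of their names, differences of 0.08 and -0.13 in Ishikawa cells and of -0.32 and -0.27 in HEC-1A cells. In the pair that links IFT-B to the BBSome, IFT27, a small GTPase, was higher, with 4.93 against 5.32 in Ishikawa and 6.77 against 6.98 in HEC-1A cells. Its partner IFT25 was lower, with 8.21 against 7.90 in Ishikawa and 8.53 against 8.37 in HEC-1A cells. IFT22, another small GTPase, was close to level, at 0.10 and 0.15. Without IFT46 the 10 core genes had medians of -0.09 and -0.05, with 6 and 5 of them lower.

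IFT70A and IFT70B are near-identical copies, whose probes can bind transcripts of both, so their separate values are uncertain. IFT70B had signals of 5.16 with siControl and 4.74 with siEfp in Ishikawa cells and of 3.0 and 3.63 in HEC-1A cells. It was the sole member with a mean signal at or below the level of the olfactory receptor genes, and its difference of 0.64 in HEC-1A cells lies in that dim range. IFT70A had signals of 6.19 and 6.25 in Ishikawa cells and of 5.62 and 5.90 in HEC-1A cells. Both genes carry the X-box shown above, and over the 8 genes with an X-box the median differences were 0.00 in Ishikawa and 0.06 in HEC-1A cells, beside -0.14 and -0.08 over the 27 without it, IFT46 included.

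The peripheral IFT-B genes, which connect the core to kinesin-2 and to the base of the cilium, were lower in Ishikawa cells and mixed in HEC-1A cells. In Ishikawa cells 5 of the 6 were lower, with a median of -0.25, and in HEC-1A cells 3 were lower and 3 higher, with a median of 0.09. IFT57, the subunit also called Hippi, had signals of 7.89 and 7.47 in Ishikawa cells and of 7.78 and 7.43 in HEC-1A cells, lower in both. IFT20, which also works at the Golgi, went from 7.46 to 7.04 in Ishikawa cells and from 7.97 to 8.25 in HEC-1A cells. IFT80 had differences of -0.26 and 0.23, again of opposite sign. IFT172, the large subunit at the turning point of the trains, was the exception in Ishikawa cells. Its signals were 6.41 and 6.52 there and 5.82 and 6.14 in HEC-1A cells. TRAF3IP1, or IFT54, had differences of -0.25 and -0.13, while CLUAP1, or IFT38, had signals of 6.84 and 6.60 in Ishikawa cells and of 7.42 and 7.38 in HEC-1A cells. Over all 16 IFT-B genes without IFT46, 11 were lower in Ishikawa cells and 8 in HEC-1A cells, with medians of -0.19 and 0.01.

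**Figure D2:**
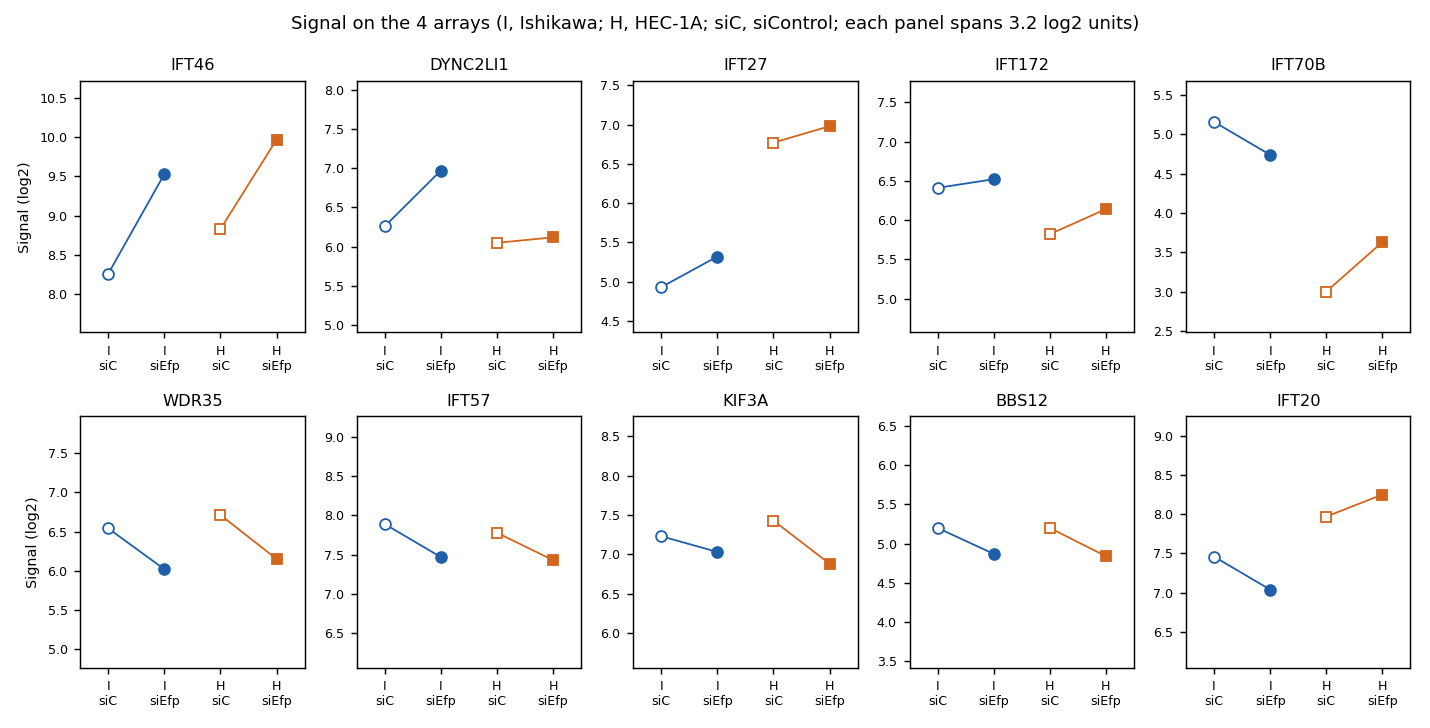
Log2 signal (y axis, 3.2 log2 units in each panel) of 10 genes on the 4 arrays (x axis; open symbols siControl, filled symbols siEfp, blue circles Ishikawa, orange squares HEC-1A). IFT46 goes from 8.26 to 9.53 and from 8.83 to 9.97, IFT70B and IFT20 slope in opposite directions in the lines, and WDR35, IFT57, KIF3A and BBS12 slope down in both.

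Among the genes of IFT-A, the complex of the return journey, WDR35 was the lowest member of the whole list. WDR35, or IFT121, had signals of 6.54 with siControl and 6.02 with siEfp in Ishikawa cells and of 6.71 and 6.15 in HEC-1A cells. The differences of -0.52 and -0.56 did not reach 1.5-fold, and 7.22% of all genes in Ishikawa and 3.90% in HEC-1A cells were at least as far from 0. WDR19, or IFT144, was at -0.30 in Ishikawa and 0.28 in HEC-1A cells. IFT43 had differences of -0.17 and -0.05, IFT122 of 0.22 and 0.03, and IFT140 of 0.14 and -0.10. TULP3, which hands G protein-coupled receptors to IFT-A, was at 0.04 and -0.04.

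The BBSome subunits were close to level, with differences from -0.18 to 0.21 in Ishikawa and from -0.37 to 0.12 in HEC-1A cells. Their medians were 0.02 and -0.08 over 7 genes. BBS5, a lipid-binding subunit, had signals of 6.62 and 6.66 in Ishikawa and of 5.68 and 5.31 in HEC-1A cells. BBS7 had differences of -0.07 and -0.32. BBS1, the subunit that meets the membrane GTPase, was at 0.09 and 0.12, and BBS9 at 0.02 and 0.11. BBS2 and TTC8, or BBS8, were lower in both lines by little, with -0.18 and -0.14 in Ishikawa and -0.05 and -0.08 in HEC-1A cells. BBS4 had differences of 0.21 and -0.10. Of the chaperonin-like genes that assemble the BBSome, the 2 members, BBS12 and BBS10, were lower in both lines, while MKKS, or BBS6, which is outside the list, had differences of -0.37 and 0.19. BBS12 went from 5.20 to 4.87 in Ishikawa and from 5.20 to 4.84 in HEC-1A cells, with both siEfp signals near the olfactory receptor level of 4.74. BBS10 had differences of -0.47 and -0.13. ARL6, the GTPase that recruits the BBSome to membranes, was at -0.07 and 0.06.

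The motor genes had no common direction. Of the dynein-2 members, DYNC2LI1 was higher and DYNC2H1 level, while 2 of the 3 kinesin-2 genes were lower in Ishikawa cells and all 3 in HEC-1A cells. DYNC2LI1, the light intermediate chain of dynein-2, had signals of 6.26 and 6.97 in Ishikawa cells and of 6.05 and 6.12 in HEC-1A cells, a difference of 0.71 in the former and of 0.07 in the latter. It ranked 126th from the top of all genes in Ishikawa cells. DYNC2H1, the heavy chain of the same motor, did not share it, at 0.00 and 0.04, and its 2 probe sets gave -0.06 and 0.06 in Ishikawa cells. KIF3A, a motor subunit of kinesin-2, had signals of 7.23 and 7.03 in Ishikawa and of 7.43 and 6.88 in HEC-1A cells. Its partner KIF3B had differences of -0.26 and -0.04. KIFAP3, the non-motor subunit, was at 0.25 in Ishikawa and -0.40 in HEC-1A cells.

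In RefSeq the gene of IFT46 lies on chromosome 11 and overlaps a gene of the opposite strand on each side, so the values of these neighbours were read beside its own. TMEM25, a transmembrane protein gene, had signals of 7.57 with siControl and 8.02 with siEfp in Ishikawa cells but of 5.5 and 5.34 in HEC-1A cells, where it did not go with IFT46. ARCN1, the delta subunit of the COPI coat, was at 10.18 and 10.39 and at 10.38 and 10.65, higher by 0.20 and 0.26. Which transcripts the probes of IFT46 meet in the overlapping stretches was not tested.

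Among the other ciliary genes, some of the transition zone lay further below their controls than any IFT or BBSome gene. The transition zone is the gate at the base of the cilium. Its genes were listed together with nephronophthisis genes, not all of which belong to the gate. Of the 24 measured genes of this joint list, 13 were lower in Ishikawa and 12 in HEC-1A cells. Of all genes, 47.6% and 47.7% were lower. The medians over these 24 genes were -0.09 and 0.00. The genes at least 2-fold lower were 2 in Ishikawa cells, beside 0.804% of all genes, and 1 in HEC-1A cells, beside 0.271%. TCTN2, a tectonic protein, had signals of 8.97 and 7.60 in Ishikawa cells and of 8.37 and 6.69 in HEC-1A cells, 2.59-fold and 3.21-fold lower. TMEM216, a tetraspan protein of the Meckel syndrome module, went from 7.35 to 6.02 and from 8.02 to 7.15. RPGRIP1L, a scaffold of the gate, went from 7.31 to 6.36 and from 7.62 to 6.86. For all 3 the siEfp array was lower in both lines, by at least 1.5-fold, as for 0.961% of all genes, and no other gene of the ciliary and marker lists was so in both lines. TCTN3, a further tectonic gene, had differences of -0.95 and -0.50, the latter short of that threshold. At the high end of the same list, TMEM231 was at 0.28 and 0.36, B9D2 at 0.20 and 0.13 and TMEM107 at 0.21 and 0.09. TCTN2 was also among the 0.174% of all genes that were at least 2-fold lower in both lines, where 0 of the 38 members were. It stood 38th from the bottom of all genes in Ishikawa and 5th in HEC-1A cells.

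**Figure D3:**
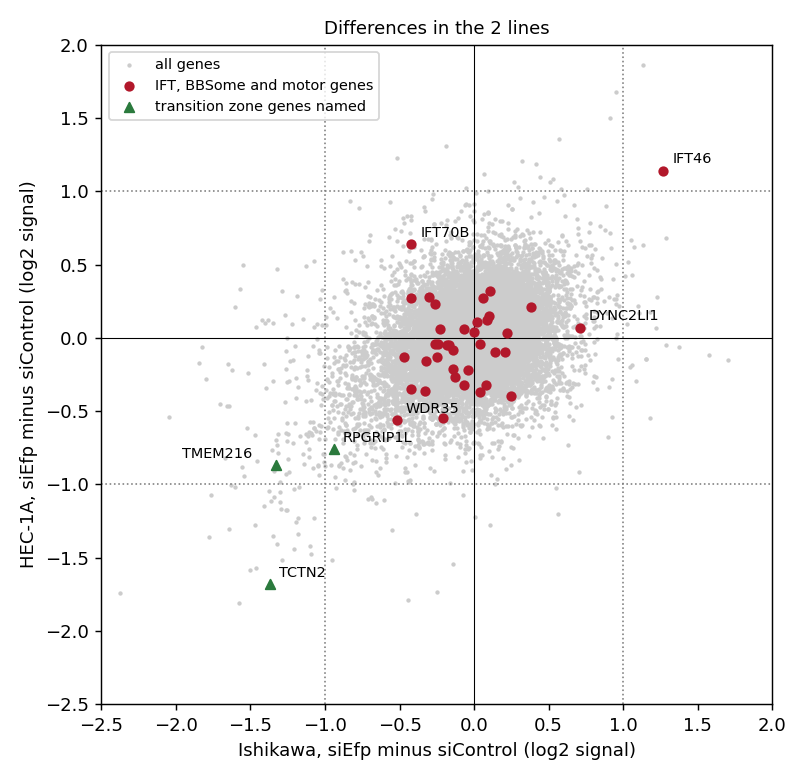
Difference between siEfp and siControl (log2 signal) in Ishikawa cells (x axis) and HEC-1A cells (y axis) for all 18417 genes (grey), the 38 IFT, BBSome and motor genes (red circles) and 3 transition zone genes (green triangles); dotted lines mark 2-fold. IFT46 is in the upper right corner, beyond 2-fold in both lines, the other red points gather around 0, and TCTN2 at -1.37 and -1.68 is in the lower left.

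In Ishikawa cells 2 of 22 ciliary membrane traffic and Hedgehog genes were at least 1.5-fold lower, beside 3.72% of all genes. So were 1 of 21 distal appendage and centriole genes and 1 of 11 ciliary transcription factor genes. In HEC-1A cells 0 genes of these lists were, beside 2.04%, and 0 were 1.5-fold higher in either line. Lower by any amount were 47.6% of all genes in Ishikawa and 47.7% in HEC-1A cells. Of 8 measured subunits and partners of the same complexes outside the list, 6 were lower in Ishikawa and 5 in HEC-1A cells, none by 1.5-fold. TTC21B of IFT-A was at -0.24 and -0.08, DYNC2I1 of dynein-2 at 0.20 and 0.34 and DYNLT2B of the same motor at -0.23 and -0.32. Of 21 distal appendage and centriole genes, 10 and 9 were lower, with CCP110, which caps centrioles and holds back cilia, at -0.60 and -0.49 and CEP120 at 0.26 and 0.53. Of 22 ciliary membrane traffic and Hedgehog genes, 10 were lower in Ishikawa and 16 in HEC-1A cells. Among them were ARL3, a GTPase of ciliary lipid cargo, at -0.60 and -0.50 and the Hedgehog receptor PTCH1 at -0.60 and -0.48. At the high end of this list were GLI1 at 0.12 and 0.31, HHIP at 0.22 and 0.18 and GLI3 at 0.29 and -0.10. The mean signals of GLI1, HHIP and GLI3 lay below the olfactory receptor level of 4.74. Of 11 ciliary transcription factor genes, RFX5, better known from MHC class II promoters, was 2.40-fold lower in Ishikawa cells and at -0.21 in HEC-1A cells. RFX3, a regulator of IFT genes, had differences of -0.13 and 0.25 and RFX2 of 0.16 and -0.02.

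A comparison that the choice of the list did not use is that between the lines, for which both arrays of a line were set against those of the other line with the siRNA as a further term (limma across all genes). It rests on 2 arrays per line that carry different siRNAs and leave 1 residual degree of freedom. That residual holds how far the line difference changed with the siRNA, and no spread between replicate cultures. To it limma added a prior estimated over all genes, worth 5.54 degrees of freedom. The standard errors and p-values therefore draw largely on the other genes. At an adjusted p under 0.05 the lines differed in 13 of the 38 genes, or 34.2%, and in 35.2% of all genes. Ishikawa cells had the higher signal in 4 of them, beside 17.0% of all genes, and HEC-1A cells in 9, beside 18.3%. By complex, 11 of the 13 belonged to IFT-B, the largest part of the list. They were 6 of the 11 genes of its core and 5 of its 6 peripheral genes. Of the IFT-A genes 0 of 5 passed the test, and of the motor genes 0 of 5.

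The signal of IFT27, the small GTPase of the IFT25 pair, was 4.93 and 5.32 in Ishikawa and 6.77 and 6.98 in HEC-1A cells. Its difference between Ishikawa and HEC-1A was -1.75 ± 0.12 (SE; limma, adjusted p = 0.00011). The Ishikawa siControl signal of IFT27 lay near the olfactory receptor level of 4.74. TRAF3IP1, at 6.0 and 5.75 against 7.21 and 7.08, was lower in Ishikawa by -1.27 ± 0.12 (SE; limma, adjusted p = 0.00042). IFT27 and TRAF3IP1 were named for the size of this difference, which in both was far larger than that between the siRNAs. BBS5, with 6.62 and 6.66 against 5.68 and 5.31, was higher in Ishikawa cells by 1.14 ± 0.14 (SE; limma, adjusted p = 0.0014). IFT70B passed the test too, higher in Ishikawa cells (limma, adjusted p = 0.0025), with means of 4.95 and 3.32. Both its HEC-1A signals lay below the level of the olfactory receptor genes, and its Ishikawa siEfp signal of 4.74 lay at that level. Its Ishikawa mean was 1.16-fold above the level. The size of the IFT70B difference is therefore uncertain, and it is not ranked with the others. IFT20 had a difference of -0.86 ± 0.18 (SE; limma, adjusted p = 0.011) and CLUAP1 of -0.68 ± 0.13 (SE; limma, adjusted p = 0.0065), both higher in HEC-1A cells.

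IFT25, the partner of IFT27, was also higher in HEC-1A cells, by less, at -0.40 with an adjusted p of 0.048 in limma. The remaining differences that passed were those of BBS10, IFT46, IFT80 and IFT81, from -0.61 to -0.46, and of IFT172 and IFT70A, 0.49 and 0.46, with adjusted p from 0.015 to 0.044 in limma. Of the 13 genes, IFT27, IFT70B, TRAF3IP1 and BBS5 passed under every other fit that tested them, each array left out in turn included. IFT46 did not. Without the Ishikawa siControl array its difference was 0.13 and without the HEC-1A siEfp array 0.07, as against -0.51 with all 4 arrays. These last fits compare 2 arrays of a line with 1 of the other and hold no siRNA term. The siRNA difference of IFT46 therefore enters them, and they cannot show whether its line difference is stable. With the siRNA matched, Ishikawa minus HEC-1A was -0.57 on the siControl arrays and -0.44 on the siEfp arrays for IFT46.

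**Figure D4:**
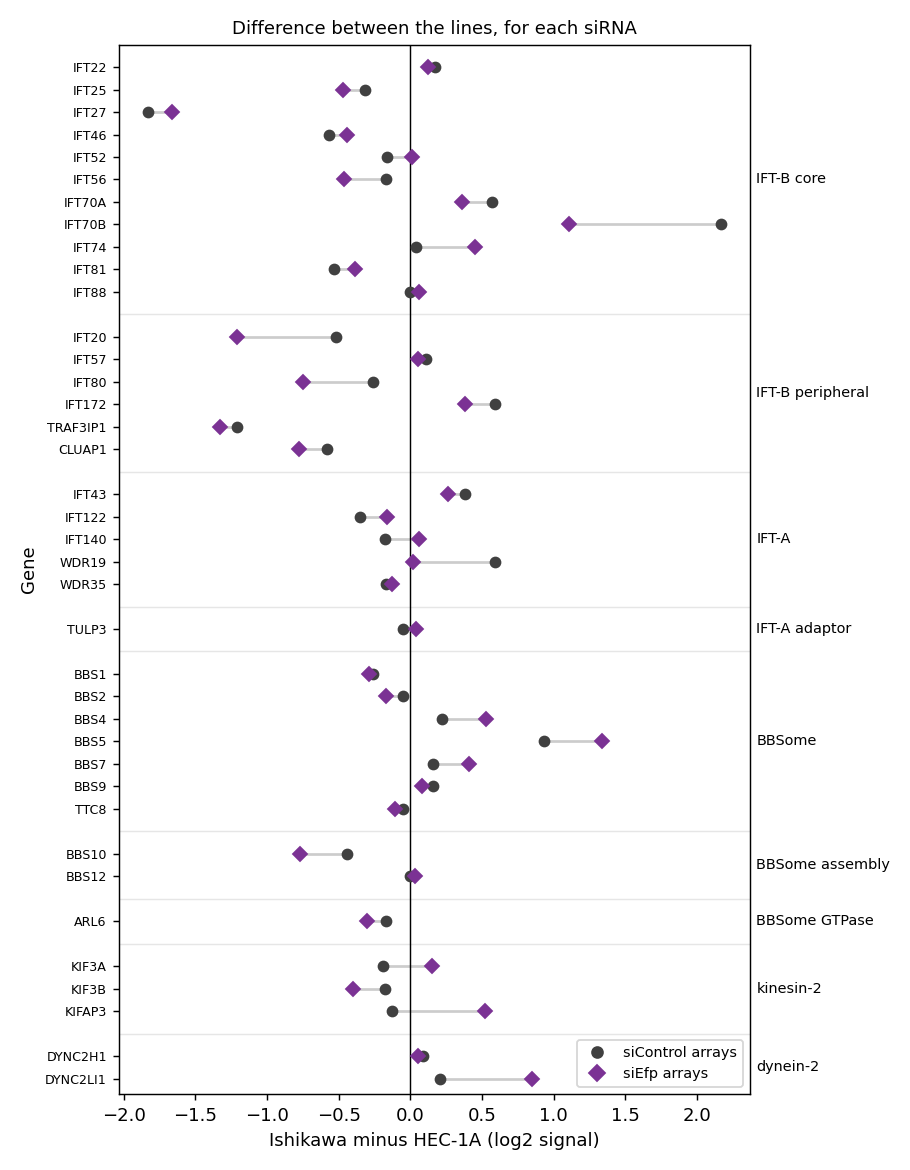
Difference between Ishikawa and HEC-1A cells (x axis, log2 signal) for each of the 38 genes (y axis, by complex), with siControl arrays as black circles and siEfp arrays as purple diamonds, 1 array per line and siRNA. IFT27 and TRAF3IP1 lie far to the left and IFT70B and BBS5 to the right with both siRNAs, and IFT70B has the widest gap between its points.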

How the data were processed

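Total RNA of 4 cultures was hybridised to Affymetrix arrays, with 150 ng per labelling per the labels. The values deposited are log2 signals from RMA in Affymetrix Expression Console, as the submitters' processing notes name them, with no version or build stated in these sources. The study names an exon array, while the probe set numbers are those of the Human Gene array. RMA gives the probe intensities of every array the same distribution before probe sets are summarized, so a change common to all genes is lost. It also shrinks dim differences. Of 33297 probe sets, 19460 named 1 gene in GEO's platform annotation, 1754 several and 12083 none. Several probe sets of a gene were averaged. Of those used, 19429 matched a RefSeq gene ID (GRCh38.p14).

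Each difference was taken as siEfp minus siControl in the same line, with no test, and counted at 2-fold and 1.5-fold. The lines were compared with limma 3.58.1 in R 4.3.3 over 18417 genes, with line and siRNA as terms and Benjamini-Hochberg adjustment. A run on simulated arrays, with independent errors drawn from the fitted prior, checked the code. It could not check the p-values given here, whose residual holds how the line difference changed with the siRNA. Counts and plots were made in Python 3.11.15 (numpy 2.4.6, pandas 2.3.3, matplotlib 3.10.9). The members and lists were chosen with earlier results of these data known. All 4 signals are given for IFT46, the 4 members furthest up and down, those past 1.5-fold and the 6 with the largest fitted differences between the lines, and for IFT25, IFT52, IFT56, IFT70A and IFT88 as partners or paralogs. Genes of other lists were taken from the 3 at either end of each, and KRT18, MKKS, TCTN3, DNAH5, PTPRC, RFX2 and RFX3 were named after their values had been seen. Some genes of the lists are not reported here. The number of arrays limits the precision. Alternatives were centring, a second quantile normalization, the brightest probe set, filters on dim genes, lists without IFT46 or the IFT70 paralogs, other thresholds, and for limma no siRNA term, an intensity trend and each array left out.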

Additional observations from a re-analysis of the deposited data

Results flagged for a closer look

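In 4 genes the siEfp difference had opposite signs in the lines with at least 0.25 on either side, and the difference between the lines was not tested, since each rests on 1 array per condition. The size of 0.25 was set after the values had been seen. Taken as HEC-1A minus Ishikawa it was 1.06 for IFT70B, which was dim in HEC-1A cells, 0.69 for IFT20, 0.58 for WDR19 and -0.65 for KIFAP3.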

How the results depend on the processing

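Centring on the median of all genes, a second quantile normalization and the brightest probe set moved none of the 222 single differences of members other than IFT46 by 0.1 or more, and 218 kept their sign. Those of IFT46 kept theirs too. In Ishikawa cells IFT52 turned from -0.04 to 0.03 after quantile normalization, and DYNC2H1, at 0.00, went to -0.01, -0.04 and -0.06 under the 3 settings. The cause was not tested. Without members below the median signal 9 genes were higher in Ishikawa cells in place of 16, of fewer genes. At least 2-fold higher was 1 member in each line, and 0 without IFT46. At 1.5-fold there were 2 in each line, IFT46 included. Between the lines, the members higher in Ishikawa and in HEC-1A cells were 4 and 9, 2 and 4 without the siRNA term, and 2 and 3 at an adjusted p under 0.01. With each array left out in turn, which leaves 1 array in a line that is assumed to vary like the others and drops the siRNA term, they were 2 to 3 and 2 to 5, and the difference of IFT46 ran from -1.14 to 0.13. Of the 13 genes, 4 passed in every one of the 9 other fits that tested them. Genes of dim signal, IFT70B above all, limit what the arrays can show.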

Other observations

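Markers of multiciliated cells were mostly dim, with 10 of 26 above the level of the olfactory receptor genes. Their median signals were 4.13 and 4.33 on the Ishikawa arrays and 4.03 and 4.15 on the HEC-1A arrays, in the order siControl and siEfp. Taken gene by gene, the median differences were 0.03 and 0.05. Of the 26 markers, 14 were higher in Ishikawa and 15 in HEC-1A cells, beside 52.2% and 52.1% of all genes. Among the markers FOXJ1, the master regulator of motile cilia, had signals of 6.56 and 7.12 in Ishikawa and of 5.25 and 5.33 in HEC-1A cells. CIMAP3, a ciliary protein once called PIFO, was at 4.34 and 4.95 and at 3.99 and 4.65, a difference of 0.62 and 0.66 near the dim end. RSPH9 and SPAG6 of the same list, both dim, were lower in both lines, RSPH9 at -0.37 and -0.27 and SPAG6 at -0.15 and -0.13. DNAH5, a dynein heavy chain of the axoneme, stayed between 3.42 and 4.19 on all 4 arrays. CAPS, the calcyphosine gene, was bright, and it was higher in Ishikawa cells, at 9.76 and 9.52, than in HEC-1A cells, at 7.01 and 6.87. Of 7 epithelial markers, 7 were lower after siEfp in Ishikawa and 6 in HEC-1A cells, beside 47.6% and 47.7% of all genes. The median difference was -0.21 in both lines. EPCAM, counted as lower in Ishikawa cells, was in fact level there, at 11.24 on both arrays. Of 11 stromal, endothelial and immune markers, 4 lay above the olfactory receptor level, with COL1A1 between 6.37 and 7.40 and PTPRC, the leukocyte gene for CD45, between 2.90 and 3.17. Whether any of these levels bears on the IFT and BBSome genes was not tested.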
